A study of Mus musculus with 9 samples.

Results

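The globin genes of the mouse were described across 9 RNA-seq libraries of bone marrow cells carrying c-KIT, the receptor for stem cell factor. The set is a gene family with its chaperone: the adult alpha globins Hba-a1 and Hba-a2, the embryonic alpha-like gene Hba-x, the adult beta globins Hbb-bs and Hbb-bt, the embryonic beta-like genes Hbb-bh1 and Hbb-y, and Ahsp, which encodes a chaperone of free alpha globin. Of these 8 genes, 7 were matched among the 43629 gene identifiers of the deposited table, and Ahsp was not analysed here. All mice were C57BL/6 and were treated with pIpC, a double-stranded RNA analogue that induces interferon and through it the Mx1 promoter. WT mice made up the first group, and their label names no Mx1-Cre. The second group, labelled "Mx1-Cre, Cbfb+/56M" and called KI here, carried Cre recombinase under the Mx1 promoter and 1 copy of a conditional knock-in allele of the leukaemia fusion CBFB-MYH11. The third, labelled "Chd7f/f, Mx1-Cre, Cbfb+/56M" and called KI_Chd7del here, carried the same alleles plus floxed Chd7, the gene of a chromatin remodelling ATPase. Each group had 3 libraries, and ages were not given. The Mx1 promoter is active in many interferon-responsive cells, so Cre is not limited to a single blood lineage. Whether the libraries of a group were made from separate mice is not stated, and the tests therefore rest on a spread between libraries that may be technical.

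Haemoglobin is a tetramer of alpha-like and beta-like chains, each holding a heme group. Mouse alpha-like genes lie in a cluster on chromosome 11 and beta-like genes in another on chromosome 7, each with a distant enhancer region that acts in red cell precursors, and embryonic genes precede adult ones in both. Adult globin transcripts accumulate late in the red cell lineage, after the progenitor stages at which c-KIT is high, and the transcription factors GATA1, TAL1 and KLF1 are their best known activators.

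The promoters are shown first because the adult genes moved together and the embryonic genes stayed near 0. The sequences are RefSeq promoters of GRCm38.p6 cut to the 250 bases before the RefSeq start, read 5′ to 3′ on the strand of the gene. The gene spans and kb distances given below come from another annotation, GENCODE, whose starts differ, so each printed window overlaps the span of its gene. Capitals mark the words CACCC and CCAAT and a TATA box, spelled TATAA or else ATAAA, on either strand. Of the 7 matched members 6 had a RefSeq promoter, and Hbb-bh1 is named only. Hba-a2 is not repeated, because it was identical to Hba-a1 over 247 of 247 aligned bases.
Hba-a1 (chr11:32283422-32283671, + strand): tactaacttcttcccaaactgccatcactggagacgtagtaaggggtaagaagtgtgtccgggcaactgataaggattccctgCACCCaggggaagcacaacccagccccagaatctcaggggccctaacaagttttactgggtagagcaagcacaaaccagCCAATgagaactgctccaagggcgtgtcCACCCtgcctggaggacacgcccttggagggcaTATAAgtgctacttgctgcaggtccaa
Hbb-bs (chr7:103827929-103828178, - strand): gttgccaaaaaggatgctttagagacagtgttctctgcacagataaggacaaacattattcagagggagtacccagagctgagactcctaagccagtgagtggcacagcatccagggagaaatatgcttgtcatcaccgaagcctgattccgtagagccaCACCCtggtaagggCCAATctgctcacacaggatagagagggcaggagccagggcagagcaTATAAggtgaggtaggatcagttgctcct
Hbb-bt (chr7:103813924-103814173, - strand): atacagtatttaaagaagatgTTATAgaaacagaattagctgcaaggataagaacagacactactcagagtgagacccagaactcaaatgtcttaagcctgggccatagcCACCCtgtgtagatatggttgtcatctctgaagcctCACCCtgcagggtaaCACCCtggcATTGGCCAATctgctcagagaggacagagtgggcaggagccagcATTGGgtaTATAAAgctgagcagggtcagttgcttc
Hba-x (chr11:32276350-32276599, + strand): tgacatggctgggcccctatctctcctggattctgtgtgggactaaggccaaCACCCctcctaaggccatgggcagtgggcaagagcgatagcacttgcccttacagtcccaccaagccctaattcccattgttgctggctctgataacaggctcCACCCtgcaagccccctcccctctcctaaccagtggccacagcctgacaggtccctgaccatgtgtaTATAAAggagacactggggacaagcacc
Hbb-y (chr7:103853208-103853457, - strand): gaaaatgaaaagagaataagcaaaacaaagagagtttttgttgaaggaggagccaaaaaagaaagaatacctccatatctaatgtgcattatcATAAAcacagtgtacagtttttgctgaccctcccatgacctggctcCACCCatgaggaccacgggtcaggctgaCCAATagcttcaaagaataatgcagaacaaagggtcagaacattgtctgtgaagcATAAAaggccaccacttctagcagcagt

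CACCC is the core of the site bound by KLF1 and related factors, CCAAT is bound by NF-Y, and the TATA box positions the polymerase. In Hba-a1 the nearest CACCC, the CCAAT and the TATA box began 60, 88 and 27 bases before the start. In Hbb-bs they began at 90, 76 and 29 bases. Hbb-bt held CACCC at 140, 104 and 89 bases, CCAAT at 80, 75 and 36 bases and overlapping TATA matches at 28 and 27 bases. Hba-x had CACCC at 198 and 95 bases and TATA matches at 28 and 27 bases but no CCAAT in this window. Hbb-y had CACCC at 111, CCAAT at 83 and a TATA match at 28 bases. Each of these short words is common: among 32851 RefSeq promoters of the same length, 52.0% held CACCC, 33.8% CCAAT and 43.0% TATAA or ATAAA, and 6.61% held all of them. A stricter arrangement, CACCC and CCAAT followed by TATAA, all as written and within 120 bases of the start, was chosen after the sequences were seen. It occurred in 36 promoters (0.11%), among them those of all 4 adult globin genes and neither Hba-x nor Hbb-y. Hbb-y has the words in this order within 120 bases and was left out only because its TATA match is spelled ATAAA. The choice of spelling thus set the split between adult genes and Hbb-y, and no conclusion is drawn from it. Hba-a1 and Hba-a2, being identical here, count as the same sequence. GATA words (AGATAA or else AGATAG, with TGATAA and likewise TGATAG, on either strand, in 26.5% of promoters) were present in Hba-a1, Hba-a2, Hbb-bs, Hba-x and Hbb-y and not in Hbb-bt. The core words of RUNX proteins, the DNA-binding partners of CBFB, TGTGGT and TGCGGT, were in none of these windows on either strand, against 18.6% of all promoters. The promoters were compared by sliding them a few bases without gaps. Hbb-bs and Hbb-bt then matched at 127 of 249 bases (51.0%), and Hba-a1 and Hbb-bs at 78 of 243 (32.1%). Inserted or lost bases lower such figures, so they do not measure how much these promoters share.

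The values are read numbers that the authors had scaled by 1 factor per library and rounded, called normalised values here. WT libraries summed to 43.2 to 46.2 M, KI libraries to 37.7 to 39.0 M and KI_Chd7del libraries to 37.5 to 38.1 M. Chd7 stood at 1862, 1794 and 1921 in KI_Chd7del, at 1979, 2934 and 2009 in KI and at 3471, 3745 and 3982 in WT. Its whole-gene value was not called different between KI_Chd7del and KI (log2 fold change -0.29, SE 0.14, adjusted p = 0.121) and does not separate deleted from intact exons. Kit, which encodes the receptor used for selection, was present in every library and lower in KI (3226 to 3868) than in WT (7354 to 7797) or KI_Chd7del (6131 to 8508). All 20 late neutrophil genes were lower in KI than in WT, where 27.2% of all tested genes were called lower and 31.8% higher. Their summed values were 4818450 to 6064020 for WT, 306925 to 959868 for KI and 1513619 to 1968768 for KI_Chd7del. Markers of monocytes and macrophages (11 of 12 higher in KI) summed to 36283 to 38181, 213296 to 236108 and 102114 to 113548 in the same order of groups. Those of mast cells and basophils (6 of 9 higher and 3 lower) summed to 25883 to 28221, 73560 to 115800 and 56773 to 71746. Markers of marrow macrophages that take up red cells (11 of 13 higher) summed to 35452 to 41129, 34130 to 50743 and 26828 to 28303. No gene of these lists was at 0 in all libraries. In KI_Chd7del against KI, 18 of the 20 late neutrophil genes were higher, opposite to the adult globins below. Lower there were 10 of 12 monocyte, 11 of 13 marrow macrophage and 5 of 9 mast cell markers, while 2, 2 and 3 were higher. Of all tested genes 17.5% were higher and 22.9% lower. Monocyte and mast cell sums stayed above WT in KI_Chd7del. Marrow macrophage sums of WT and KI overlapped, although 11 of 13 markers were higher in KI (median log2 fold change 0.96). Such a sum weighs abundant genes most, and Vcam1 (mean 12002 in WT and 6679 in KI) was 1 of the 2 lower. The part of these cell types in the results below was not tested. In such bulk libraries, fewer cells of a type and less RNA per cell cannot be told apart.

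The 4 adult globin genes were higher in KI than in WT and lower in KI_Chd7del than in KI. Tests were made with limma on log2(value + 1) over 15997 genes that reached 10 in at least 3 libraries, with Benjamini-Hochberg adjustment, and fold changes are on that scale. Of the 7 matched globin genes, 4 passed this filter, and their lowest value in any library was 193, so the filter did not depend on the group where they were high. All 4 were called higher in KI, where 31.8% of all tested genes were called higher and 58.9% in either direction. All 4 were called lower in KI_Chd7del than in KI, where 22.9% of tested genes were called lower and 40.4% in either direction. With these backgrounds a call by itself is common, and the size of the change says more: the median log2 fold change of the 4 was 3.00 in the first comparison and -3.12 in the second, beside 0.02 and -0.01 over all tested genes. None of the 4 was called between KI_Chd7del and WT, where 48.4% of tested genes were (24% higher and 24.3% lower, median -0.32 for the 4 and 0.02 for all). The 3 comparisons share groups, so they are not independent of one another.

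**Figure D1:**
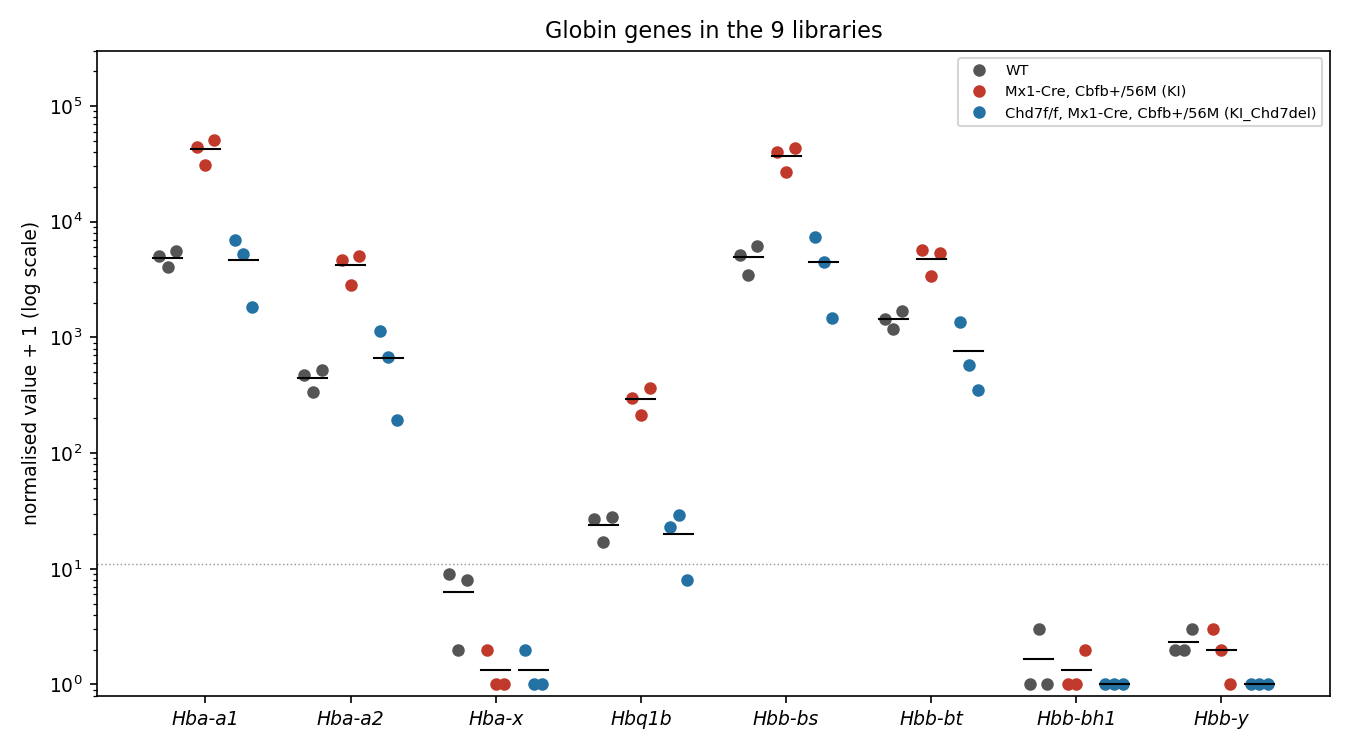
Normalised value plus 1 on a log axis for Hba-a1, Hba-a2, Hba-x, Hbq1b, Hbb-bs, Hbb-bt, Hbb-bh1 and Hbb-y, with a point per library, bars at the group means and a dotted line at the filter value of 10. All 3 KI libraries lie above every WT and KI_Chd7del library for the 4 adult genes and Hbq1b, and the embryonic genes lie below the line.

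Hba-a1 (ENSMUSG00000069919, chromosome 11, 32283511 to 32284465, plus strand, GRCm38) read 5084, 4020 and 5558 in the WT libraries, 44007, 30916 and 51271 in the KI libraries and 6938, 5233 and 1823 in the KI_Chd7del libraries. Every KI library lay above every other library, and the WT values lay within the wide KI_Chd7del range. The gene was 8.50-fold higher in KI than in WT (a log2 fold change of 3.09 with SE 0.43 and adjusted p = 0.000223) and fell by 3.35 on the log2 scale in KI_Chd7del against KI (SE 0.43, adjusted p = 0.000523). Between KI_Chd7del and WT the log2 difference was -0.26 (adjusted p = 0.645). Among all genes of a library, ordered from the highest value, Hba-a1 ranked between 1621 and 2400 in WT, between 40 and 126 in KI and between 1015 and 4693 in KI_Chd7del.

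Hba-a2 (ENSMUSG00000069917, chromosome 11, 32296489 to 32297298) lies 12.98 kb downstream of Hba-a1. It read 473, 333 and 518 in the WT libraries, 4706, 2861 and 5026 in the KI libraries, and 1139, 672 and 193 in the KI_Chd7del libraries. The KI libraries again stood above all others, while KI_Chd7del libraries 1 and 2 were above WT and library 3 below it. The log2 fold change was 3.23 for KI minus WT (adjusted p = 0.000792, SE 0.55) and -2.94 in KI_Chd7del against KI (adjusted p = 0.00325).

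Both alpha genes encode nearly the same transcript, which limits what their separate values mean. Their coding sequences differed at 1 of 429 bases, and 67.5% of 50-base windows of the Hba-a1 transcript also occurred in Hba-a2. Reads from shared windows cannot be told apart, so the division between the 2 genes is uncertain and their sum is the firmer measure. The alpha sum was 5557, 4353 and 6076 in the WT cells, 48713, 33777 and 56297 in the KI cells, and 8077, 5905 and 2016 in the KI_Chd7del cells. As a single feature it had log2 fold changes of 3.1 (adjusted p = 0.00026) and -3.30 (adjusted p = 0.000645) in the first 2 comparisons.

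Hbb-bs (ENSMUSG00000052305, chromosome 7, 103826534 to 103828096, minus strand) is the larger contributor of adult beta globin in these libraries. Its values were 5148, 3456 and 6179 for WT, 40283, 26745 and 43283 for KI, and 7375, 4479 and 1481 for KI_Chd7del. As for the alpha genes, KI did not overlap either group and KI_Chd7del library 3 was the lowest of all 9. The gene was 7.51-fold higher in KI than in WT (a log2 fold change of 2.91 with SE 0.51 and adjusted p = 0.000905), and KI_Chd7del was lower than KI by a log2 fold change of -3.30 (adjusted p = 0.00129).

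Hbb-bt (ENSMUSG00000073940, chromosome 7, 103812524 to 103813996, minus strand), the other adult beta gene of this strain, had a smaller fold change in KI than its neighbour. It stood at 1452, 1169 and 1701 in the WT libraries, 5673, 3379 and 5329 in the KI libraries, and 1350, 578 and 350 in the KI_Chd7del libraries. The KI libraries were above all others, and 2 of 3 KI_Chd7del libraries were below the lowest WT library. The gene was 3.28-fold higher in KI than in WT (log2 fold change 1.71, SE 0.42, adjusted p = 0.00664), with a log2 fold change of -2.85 in KI_Chd7del against KI (adjusted p = 0.0011). Against WT the KI_Chd7del difference was -1.13 (adjusted p = 0.0517), and this call changed with the setting: the adjusted p ran from 0.00198 to 0.154 over the alternatives and was lowest without KI_Chd7del library 1 (log2 fold change -1.66).

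The coding sequences of Hbb-bs and Hbb-bt also differed at 1 base, of 444, and 65.8% of the 50-base windows of the Hbb-bs transcript occurred in Hbb-bt, so this division is uncertain too. Summed, the beta genes gave 6600, 4625 and 7880 in the WT cells, 45956, 30124 and 48612 in the KI cells, and 8725, 5057 and 1831 in the KI_Chd7del cells. The sum had a log2 fold change of 2.71 in KI against WT (adjusted p = 0.00111) and of -3.23 in KI_Chd7del against KI (adjusted p = 0.00117).

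Per kilobase of annotated exon, the scale on which genes can be compared, Hba-a1 and Hbb-bs were at like levels in each group. Hba-a1 reached 6019 ± 970 per kb in WT, 51800 ± 12700 in KI and 5745 ± 3207 in KI_Chd7del (SD, n = 3), and Hbb-bs 6416 ± 1790, 47880 ± 11470 and 5788 ± 3837. Hbb-bt reached means of 2049, 6819 and 1080 per kb and Hba-a2 means of 662, 6293 and 1001. The first 2 genes differed by less than their SD in every group, as did Hbb-bt and Hba-a2 in KI and KI_Chd7del, while in WT Hbb-bt lay above Hba-a2 in every library.

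KI_Chd7del library 3 had the lowest value of all 9 libraries for each of the 4 adult genes. Without it, the log2 fold changes of KI_Chd7del against KI were -2.77 for Hba-a1, -2.22 for Hba-a2, -2.65 for Hbb-bs and -2.40 for Hbb-bt, and all 4 stayed called. Hba-a2 was then also called higher in KI_Chd7del than in WT (1.01, adjusted p = 0.0297). Without KI_Chd7del library 1 the values against KI were -3.74, -3.50, -3.80 and -3.38 in the same order of genes.

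The 3 embryonic genes were at or near 0 in every library and were not tested. Hba-x (ENSMUSG00000055609, chromosome 11, 32276400 to 32278116), the zeta-like gene at the start of the alpha cluster, read 8, 1 and 7 for WT, 1, 0 and 0 for KI and 1, 0 and 0 for KI_Chd7del. Hbb-y (ENSMUSG00000052187, chromosome 7, 103851749 to 103853216), the main beta-like gene of the yolk sac, read 1, 1 and 2 in WT, 2, 1 and 0 in KI and 0 in each KI_Chd7del library. Hbb-bh1 (ENSMUSG00000052217, chromosome 7, 103841637 to 103843164) read 0, 2 and 0 in WT, 0, 0 and 1 in KI and 0 in each KI_Chd7del library. None of the 3 rose with the adult genes in KI. With no filter on low values, Hba-x was called lower in KI than in WT (log2 fold change -2.06, adjusted p = 0.0218), a difference that rests on values of 8 and 7 in 2 WT libraries.

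Of the other globin genes in the clusters, Hbq1b, a theta-like gene 3.45 kb downstream of Hba-a1 whose protein role is not settled, was called in the same directions as the adult genes at a far lower level. Its values were 26, 16 and 27 in the WT libraries, 296, 211 and 362 in the KI libraries, and 22, 28 and 7 in the KI_Chd7del libraries. KI stood above both groups, which overlapped each other. The log2 fold change was 3.60 for KI minus WT (adjusted p = 0.000142, SE 0.46) and -4.02 in KI_Chd7del against KI (adjusted p = 0.000314). Its near copy Hbq1a read at most 1 in the WT cells, 4, 6 and 9 in the KI cells and 4, 3 and 0 in the KI_Chd7del cells. Hbb-bh2, in the beta cluster, read 8, 3 and 4 in KI and 0 in the 6 other libraries. The pseudogenes Hbb-bh0 and Hbb-bh3 and the myoglobin gene Mb were listed at 0 throughout, and androglobin (Adgb) was called in neither of the first 2 comparisons.

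The adult genes were next taken as shares and ratios within a library, which do not depend on scaling between libraries. With 3 libraries against 3, a 2-sided exact permutation test cannot go below p = 0.1. There were 18 such comparisons, and the lowest Benjamini-Hochberg value over them was 0.164. The 4 genes together took 0.0281%, 0.0197% and 0.0302% of the column total in the WT libraries, 0.243%, 0.167% and 0.278% of it in the KI libraries, and 0.0441%, 0.0288% and 0.0103% of it in the KI_Chd7del libraries. KI did not overlap WT or KI_Chd7del (exact permutation p = 0.1 each), with means 8.81 and 8.27 times theirs, while KI_Chd7del and WT overlapped (exact permutation p = 0.9).

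**Figure D2:**
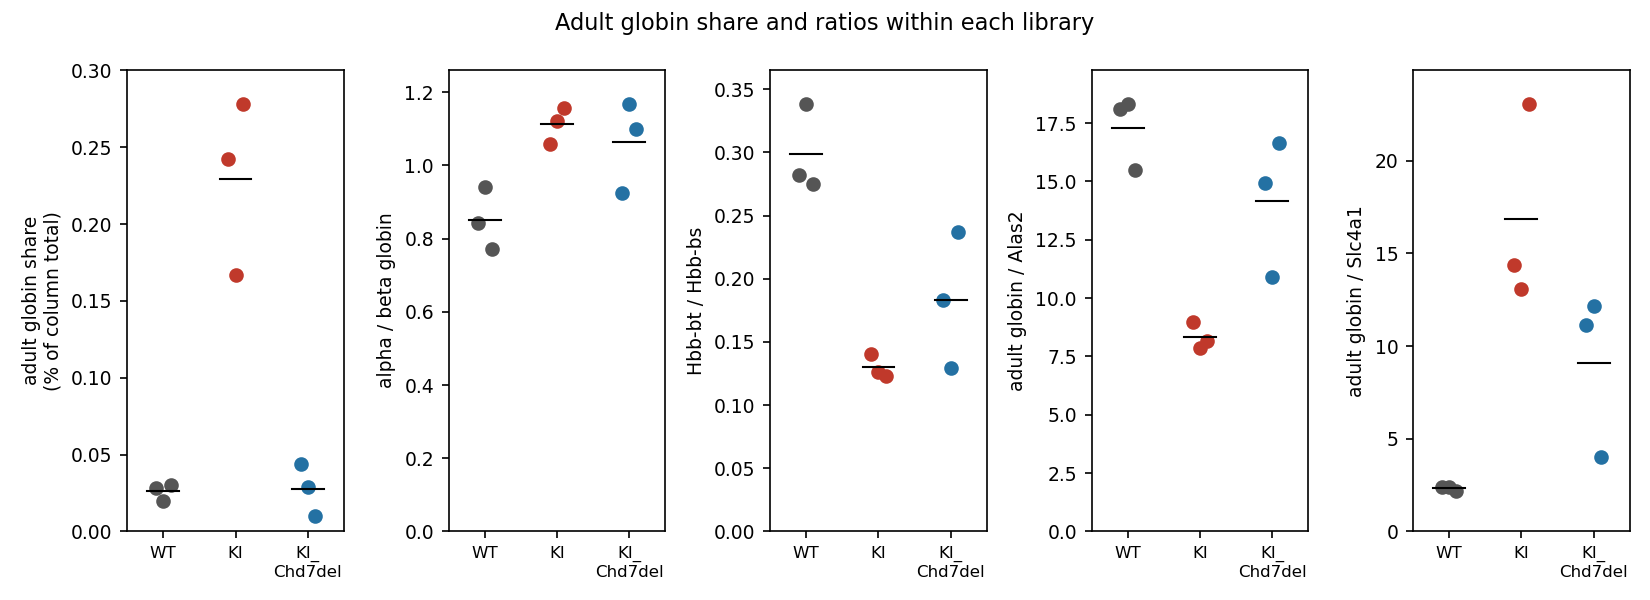
Summed adult globins as a percentage of the column total, and ratios of alpha to beta globin, Hbb-bt to Hbb-bs, adult globins to Alas2 and adult globins to Slc4a1, with a point per library and bars at the means. KI stands apart from WT in all 5 panels, above it for the share, alpha to beta and Slc4a1 ratios and below it for the others.

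The balance of alpha and beta globin was compared as a ratio. The ratio of summed alpha to summed beta values was 0.842, 0.941 and 0.771 for WT, 1.06, 1.12 and 1.16 for KI and 0.926, 1.17 and 1.10 for KI_Chd7del. WT and KI did not overlap (log2 difference 0.39), but the exact permutation test gave p = 0.1, the smallest it can give, and 0.164 after adjustment, so a difference in ratio was not established. KI_Chd7del overlapped both. The ratio of Hbb-bt to Hbb-bs was 0.282, 0.338 and 0.275 in the WT libraries, 0.141, 0.126 and 0.123 in the KI libraries and 0.183, 0.129 and 0.237 in the KI_Chd7del libraries. It was lower in KI than in WT (log2 difference -1.20) and lower in KI_Chd7del than in WT (-0.74), without overlap in either case (exact permutation p = 0.1 and adjusted 0.164 each), and KI_Chd7del overlapped KI. Hba-a2 relative to Hba-a1 stayed between 0.0831 and 0.107 in WT and KI and was 0.164, 0.129 and 0.106 in KI_Chd7del, subject to the same uncertainty of division.

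Heme is made in step with globin in maturing red cells. Alas2, the red cell form of its first enzyme, had larger estimated fold changes than the adult globins. Alas2 read 671, 489 and 900 in the WT cells, 10569, 8124 and 12878 in the KI cells and 1123, 1003 and 230 in the KI_Chd7del cells. The log2 fold change was 3.95 for KI minus WT (adjusted p = 0.000192, SE 0.53) and -4.02 in KI_Chd7del against KI (adjusted p = 0.000636). Adult globin per Alas2 was lower in KI (8.96, 7.87 and 8.15) than in WT (18.1, 18.3 and 15.5) or KI_Chd7del (15.0, 10.9 and 16.7), with no overlap. The exact permutation test gave p = 0.1 and 0.164 after adjustment each, so a difference in ratio was not established. As in the globins, KI_Chd7del library 3 had the lowest Alas2 value of all.

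Of the 8 other genes of heme synthesis, 3 were called in the same directions as Alas2, higher in KI and lower in KI_Chd7del against KI. The share of all tested genes with both calls was not computed, so whether this count is unusual cannot be said. Of all 9 heme synthesis genes, 4 were higher and 4 lower in KI than in WT (median log2 fold change 0.04, against 0.02 for all). The shares of all tested genes were 31.8% and 27.2%. In KI_Chd7del against KI, 1 was higher and 6 lower (median -0.77, against -0.01), beside 17.5% and 22.9% of all. Fech, which inserts iron into the ring, had log2 fold changes of 0.84 and -1.49 in the 2 comparisons. The others with these directions were Urod (0.73 and -0.90) and Ppox (0.47 and -1.14), which act earlier in the pathway and were named after their values were seen. Uros had -1.39 in the first and was not called in the second (0.07). Alas1, the general form of the first enzyme and the highest of the list in WT, went the other way from Alas2, at -0.95 and 1.12. Against WT, KI_Chd7del had 6 of the 9 lower and none higher, beside 24.3% and 24% of all tested genes.

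Of 13 genes of iron uptake and mitochondrial import, 2 were higher and 7 lower in KI, beside 31.8% and 27.2% of all tested genes. Under scaling to the column total, 5 were higher and 4 lower. In KI_Chd7del against WT, 1 was higher and 11 lower, beside 24% and 24.3% of all. Tfr2, a sensor of transferrin, had a log2 fold change of -1.03 in KI and of 0.45 in KI_Chd7del against KI. Tfrc, the transferrin receptor, was not called in KI (0.17) and fell by 0.85 on the log2 scale in KI_Chd7del against KI. Fam210b rose by 0.74 in KI and fell by 1.34 in KI_Chd7del against KI, and Tmem14c fell by 0.92 in KI.

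Of 13 genes that keep globin chains and heme in balance, 10 were higher and 1 lower in KI (median 0.68, against 3.00 for the adult globins), beside 31.8% and 27.2% of all tested genes. None was higher and 12 were lower in KI_Chd7del against KI (median -0.64), beside 17.5% and 22.9% of all. The 1 lower in KI was Hagh, a glyoxalase gene named after its values were seen, at -0.85 in KI and 0.02, not called, in KI_Chd7del against KI. Ube2o, a ubiquitin ligase that removes unpaired alpha globin, had log2 fold changes of 1.46 and -0.97. Ulk1, a kinase that starts autophagy of free alpha globin, had 1.11 and -0.51. Bach1, a heme-sensing repressor of globin genes, had 0.92 and -0.94, and catalase (Cat) 1.12 and -0.44. Prdx2, a peroxidase abundant in red cells and the highest of the list in WT, was not called in KI (0.24) and fell by 0.52 in KI_Chd7del against KI.

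Membrane and other red cell markers were divided in KI. Of 26 tested genes, 10 were higher and 10 lower (median -0.02), beside 31.8% and 27.2% of all tested genes. In KI_Chd7del against KI, 19 were lower and 2 higher (median -0.70), beside 22.9% and 17.5% of all. Against WT, KI_Chd7del also had 19 lower and 2 higher (5 higher under scaling to the column total). The shares of all tested genes there were 24.3% and 24%. The summed values of the list were 148286 to 169069 for WT, 127983 to 155503 for KI and 90325 to 105890 for KI_Chd7del, and Icam4 was listed at 0 throughout. Tmod1, which caps actin, rose by 3.82 in KI and fell by 2.33 in KI_Chd7del against KI, and the glucose transporter gene Slc2a1 had 2.13 and -1.56. Epb42 and Rhd were lower in both comparisons (-0.43 and -1.04 for Epb42, -0.71 and -0.77 for Rhd). The 2 higher in KI_Chd7del than in KI were Aqp1 (1.12) and Car1 (0.64). Both calls were near the threshold: that of Aqp1 was lost in 6 and that of Car1 in 7 of 24 alternatives. Neither was called without KI library 3 (0.77 and 0.48) or without KI_Chd7del library 3 (0.84 and 0.71), and the losses included limma without the trend and the fit of only these groups for both genes.

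Slc4a1, the band 3 anion exchanger and a late red cell marker, was called in the second comparison and not in the first. It read 5040, 3789 and 6386 in the WT libraries, 6593, 4880 and 4548 in the KI libraries and 1509, 901 and 960 in the KI_Chd7del libraries, so WT and KI overlapped. It was not called between KI and WT (a log2 fold change of 0.09 with SE 0.24 and adjusted p = 0.773) and fell by 2.27 on the log2 scale in KI_Chd7del against KI (adjusted p = 0.000212). Adult globin per Slc4a1 was 2.41, 2.37 and 2.19 in the WT cells, 14.4, 13.1 and 23.1 in the KI cells and 11.1, 12.2 and 4.004 in the KI_Chd7del cells. No 2 groups overlapped in this ratio, but the exact permutation test gave p = 0.1 and 0.164 after adjustment each, so a difference was not established. The KI_Chd7del libraries lay above WT in globin per Slc4a1, library 3 by the least, although the globins themselves overlapped WT.

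**Figure D3:**
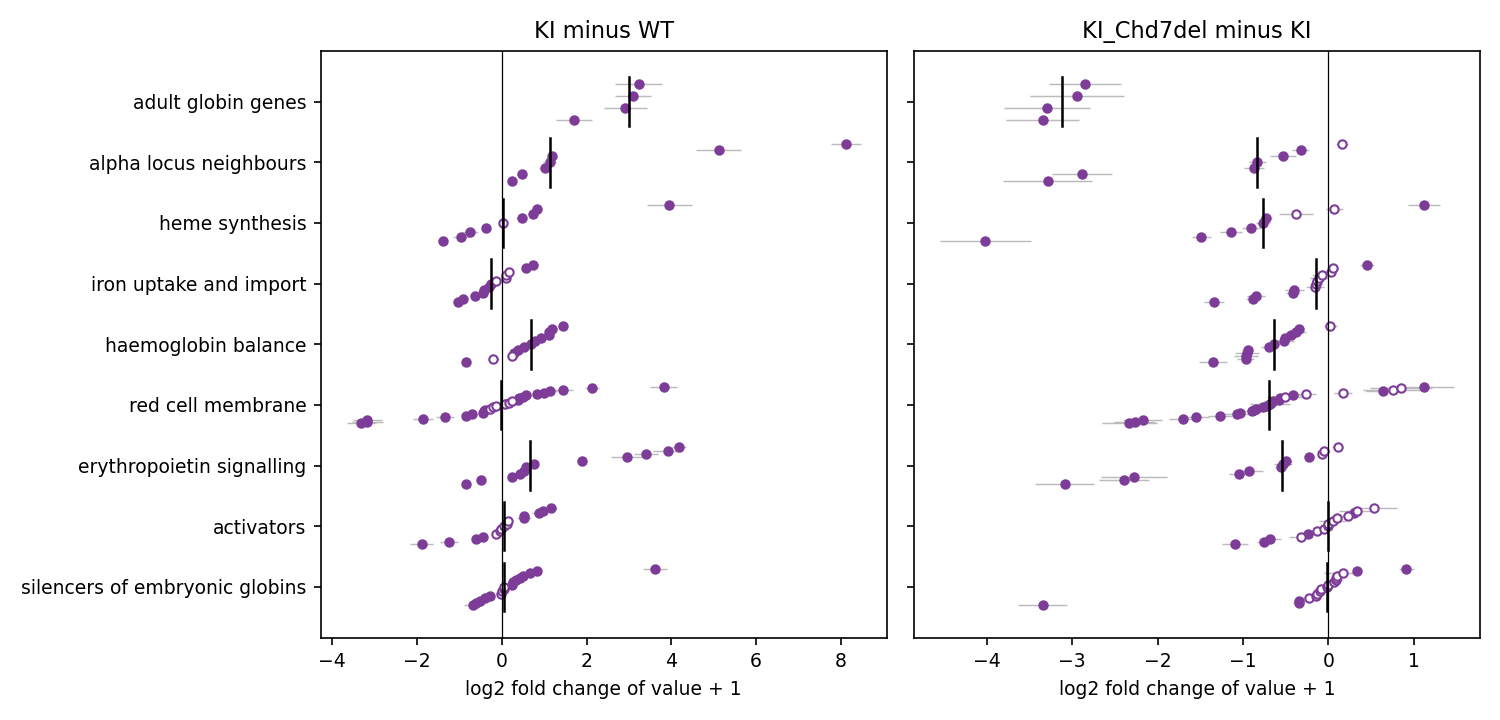
Log2 fold change of value plus 1 for each tested gene of 9 lists, KI minus WT on the left and KI_Chd7del minus KI on the right, with grey bars for the SE, filled points for genes called at an adjusted p of 0.05, open points for the others and black lines at the list medians. On the left Hba-a1, Hba-a2 and Hbb-bs lie near 3 and Hbb-bt lies at 1.71, and on the right all 4 lie near -3, while the heme, membrane, activator and silencer lists have medians near 0 on the left.

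Of 12 genes of signalling by erythropoietin, the hormone that drives red cell production, 10 were higher and 2 lower in KI (median 0.66). The shares of all tested genes were 31.8% and 27.2%. In KI_Chd7del against KI, 9 were lower and none higher (median -0.54), beside 22.9% and 17.5% of all. The gene of the receptor itself, Epor, named after its values were seen, was 1 of the 2 lower in KI (-0.49, adjusted p = 0.0033) and was lower again in KI_Chd7del against KI (-0.53, adjusted p = 0.00466). Cish and Socs2, feedback inhibitors induced by STAT5, had log2 fold changes of 3.40 and 4.18 in KI and of -2.40 and -0.93 in KI_Chd7del against KI. Pim1, a survival kinase, had 1.89 and -1.05. Spi1, which encodes a myeloid factor that opposes GATA1, fell by 0.84 in KI and was not called in the second comparison (0.11). Many of these genes also respond to other cytokine receptors.

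Of 15 activators of the globin genes, 5 were higher and 4 lower in KI (9 higher under scaling to the column total), with a median of 0.06. These are about the shares of all tested genes, 31.8% higher and 27.2% lower. In KI_Chd7del against KI, 1 was higher (3 without KI_Chd7del library 1, 2 without KI_Chd7del library 2 or WT library 3) and 4 lower. The shares of all tested genes there were 17.5% and 22.9%. Tal1 had log2 fold changes of 1.17 and -0.69, Mafk, a small partner of NF-E2, 0.96 and -0.75, and Usf1 0.53 and -0.24. Nfe2, the red cell partner of Mafk, fell by 0.60 in KI and Usf2 by 0.45, and neither was called in KI_Chd7del against KI. The larger falls among the 4 lower in KI were those of Zfpm1 (-1.89) and Klf2 (-1.25), named after their values were seen. Neither of these was called in KI_Chd7del against KI (0.54 and 0.33). Gata1 and Klf1 fall outside the rule for named genes and were added, with their values in view, as the best known of the list. Gata1 read 3719, 3229 and 3161 for WT, 6505, 4943 and 7308 for KI and 3400, 2816 and 2526 for KI_Chd7del, with log2 fold changes of 0.88 (adjusted p = 0.00088) and -1.09 (adjusted p = 0.000782). Klf1 was called in neither comparison (-0.05 and -0.32).

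Among 17 genes that silence embryonic globins, 8 were higher and 5 lower in KI (median 0.05), beside 31.8% and 27.2% of all tested genes. In KI_Chd7del against KI, 2 were higher and 3 lower, beside 17.5% and 22.9% of all. The count lower was 3 in KI without KI library 3 and 5 in KI_Chd7del against KI without KI_Chd7del library 1. Sox6, which represses embryonic beta-like genes, was called in the same directions as the adult globins. It read 650, 535 and 666 in the WT libraries, 7788, 5930 and 9319 in the KI libraries and 808, 1090 and 462 in the KI_Chd7del libraries, with KI apart from the other groups. Its log2 fold change was 3.62 in KI (SE 0.28, adjusted p = 7.25e-06) and -3.35 in KI_Chd7del against KI (adjusted p = 7.51e-05). Bcl11a, another repressor of embryonic genes, was higher in KI (0.82) and not called in the second comparison (-0.23). Nr2c2 had 0.68 and -0.34, and the deacetylase gene Hdac2 -0.40 and 0.33.

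Genes of the embryonic and fetal blood programme split. Of 4 tested, 2 were higher and 2 lower in KI, beside 31.8% and 27.2% of all tested genes. In KI_Chd7del against KI, 2 were higher and none lower, beside 17.5% and 22.9% of all. Lin28a, an RNA-binding protein of fetal blood cells, had a log2 fold change of -3.15 in KI and of 1.69 in KI_Chd7del against KI. Igf2bp2 had -0.82 and 0.68. Hmga2 (2.73) and Igf2bp3 (2.59) were higher in KI and not called in the second comparison, although Igf2bp3 was called lower there without KI_Chd7del library 3 (-1.17). Lin28b read at most 2 in any library.

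Genes around the alpha cluster rose with it. All 7 genes of the list of alpha locus neighbours were higher in KI (median 1.13), beside 31.8% of all tested genes. In KI_Chd7del against KI, 6 of 7 were lower (median -0.83), beside 22.9% of all. The list was drawn up around the human cluster, and Luc7l, which was higher in KI by 0.24, lies elsewhere in the mouse genome. Il9r, the interleukin 9 receptor gene at -83.2 kb from the start of Hba-a1, read 26, 20 and 26 in the WT cells, 6566, 5433 and 9210 in the KI cells and 1171, 1393 and 499 in the KI_Chd7del cells. Of the 7 genes of the list, 5 were called higher in KI_Chd7del than in WT and none lower, beside 24% and 24.3% of all tested genes. Il9r was among them, unlike the globins, and none of its groups overlapped. Its log2 fold changes were 8.12 in KI (SE 0.35, adjusted p = 3.94e-07), -2.88 in KI_Chd7del against KI (adjusted p = 0.000419) and 5.23 in KI_Chd7del against WT (adjusted p = 1.11e-05).

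Rhbdf1, at -61.2 kb, had a log2 fold change of 5.12 in KI and of -3.29 in KI_Chd7del against KI, from WT values of only 4, 7 and 11. Nprl3, whose introns hold the main alpha globin enhancers, had smaller fold changes, 1.18 and -0.83. It read 681, 559 and 608 for WT, 1413, 1296 and 1486 for KI and 848, 791 and 718 for KI_Chd7del. Mpg, a DNA repair gene, had 1.01 and -0.87. Snrnp25 had 0.47 and -0.33, and the second of these calls was lost in 9 of 24 alternatives, without KI_Chd7del library 3 among them (-0.26).

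**Figure D4:**
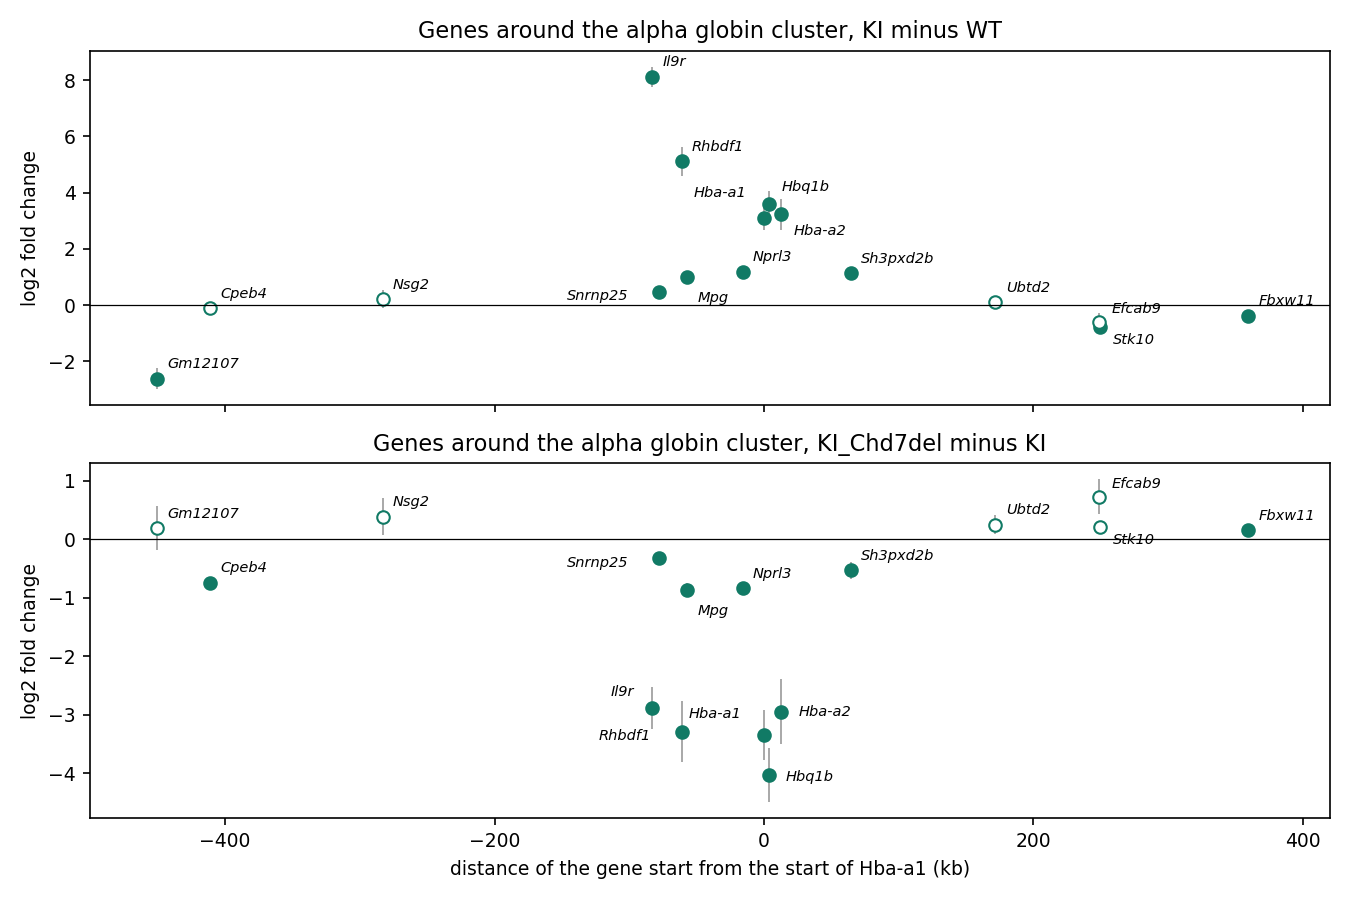
Log2 fold change of the 16 tested genes within 500 kb of Hba-a1, plotted at the distance of their start from that of Hba-a1 in kb, for KI minus WT (top) and KI_Chd7del minus KI (bottom), with bars for the SE, filled points for called genes and open points for the others. The genes from Il9r at -83.2 kb to Sh3pxd2b at 64.3 kb are above 0 in the top panel and below 0 in the bottom panel.

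The window was widened to 500 kb on each side after the data had been seen. Around the alpha cluster, 16 of 23 annotated genes were tested, of which 9 were higher and 3 lower in KI, and 1 was higher and 10 lower in KI_Chd7del against KI. These counts include Hba-a1, Hba-a2 and Hbq1b. Without them, 6 of 13 were higher and 3 lower in KI, beside 31.8% and 27.2% of all tested genes. In KI_Chd7del against KI, 1 was higher and 7 lower, beside 17.5% and 22.9% of all. The 9 higher genes lay between Il9r at -83.2 kb and Sh3pxd2b at 64.3 kb, and Ubtd2 at 171.9 kb was not called. Around the beta cluster, which sits among olfactory receptor genes, 54 of 77 annotated genes were at 0 in all libraries and 8 were tested. Only Hbb-bs and Hbb-bt of these 8 were called in either comparison, and the 6 others included Trim5, Trim6, Trim12a and Trim34a. Of all tested genes, 58.9% were called in the first comparison and 40.4% in the second. With so few neighbours tested, the clusters were not compared by a test.

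The genes most like the adult globins were ranked by Pearson's r over the 9 libraries with the mean log2 value of the 4 genes, as a description. The points share 3 groups, and 377 of 11389 candidate genes exceeded 0.9. Alas2 came first (r = 0.988), followed by Prkaa1 (0.987), Dnase1l1 (0.986), Plpp1 (0.983), Hbq1b (0.982), the spectrin gene Sptb (0.981), Optn (0.980), Tent5c (0.980), Mosmo (0.979) and Pkhd1l1 (0.978). After each group's mean was taken out, r was between 0.88 (Optn) and 0.958 (Sptb) for these 10, which were chosen by the r above. Their changes differed widely in size, from a log2 fold change of 0.37 for Prkaa1 in KI to 3.95 for Alas2. Tent5c read 1003, 1004 and 1198 in the WT libraries, 4873, 3467 and 5496 in the KI libraries and 1062, 898 and 622 in the KI_Chd7del libraries, with KI_Chd7del library 3 again the lowest.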

How the data were processed

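Values were taken from the deposited table of 43629 Ensembl identifiers, 42548 of which matched a GENCODE M21 symbol. Its unit is a score: the authors had divided read numbers by 1 factor per library and rounded them, which was read from gaps at regular places among low values (no gene at 3 in WT library 3) and not from a stated method. Per the submitters' processing notes, the tools were DESeq2, RSEM, STAR 2.4 and CASAVA 1.8.2 with the build GRCm38, and no roles or order are given; strand and treatment of multi-mapping reads are not given in the sources used here. Tests used limma 3.58.1 in R 4.3.3 on log2(value + 1), its prior variance following a trend in mean level, for genes at 10 or more in at least 3 of the 9 libraries, over 3 groups without a block, 2-sided, with Benjamini-Hochberg adjustment at 0.05. The log2 scale understates changes of low genes, and low values are limited by counting. The fit was also run on simulated data with known library factors and far fewer changed genes than here. The pass line for recovered genes was lowered after a run was seen. This run checks the code and does not measure error rates in these data. Exact permutation tests used scipy 1.17.1, and data were handled with Python 3.11.15, numpy 2.4.6, pandas 2.3.3, R package data.table (version 1.17.8) and matplotlib 3.10.9. The members and gene lists were chosen with earlier results of these data known. Named from each list were up to 4 genes with the smallest adjusted p over the first 2 comparisons and up to 2 with the highest WT value; 1 of them is not reported here. From the identifiers with a symbol, a mean value of at least 50 and no Gm, Rik or pseudogene name, the 10 most like the adult globins were also named.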

Additional observations from a re-analysis of the deposited data

How the results depend on the processing

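Alternatives were other pseudocounts, filters, scalings, limma without the trend, limma-voom, 2-group fits, a replicate block, near-identical pairs summed and each library left out. For the adult globins, all calls in the first 2 comparisons were kept in each of them, with log2 fold changes in KI against WT of 2.93 to 3.32 for Hba-a1, 3.04 to 3.48 for Hba-a2, 2.67 to 3.14 for Hbb-bs and 1.57 to 1.95 for Hbb-bt. In KI_Chd7del against KI they ran from -3.74 to -2.77, -3.50 to -2.22, -3.80 to -2.65 and -3.38 to -2.40. With pairs summed, 2 members were called in each comparison instead of 4, since only 2 features were left.

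In KI_Chd7del against WT, 1 member was called in place of 0 with TMM factors, upper-quartile factors or a replicate block (Hbb-bt, adjusted p = 0.0495, 0.0475 and 0.0421) and with no filter (Hba-x, adjusted p = 0.0281). Leaving out a library gave 0 to 1 called: Hbb-bt without KI library 2 (adjusted p = 0.0499) or KI_Chd7del library 1, and Hba-a2 without KI_Chd7del library 3. The replicate numbers do not pair the libraries: of 9 same-numbered pairs, 1 had deviations correlated over 0.1 (range -0.153 to 0.109), and the block changed no other call of an adult globin.

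Scaled to the column total, the median of all genes moved from 0.02 to 0.25 in KI against WT and from 0.02 to 0.27 in KI_Chd7del against WT, and the share of calls that were higher from 53.9% to 74.3% and from 49.7% to 78.9%. In KI_Chd7del against KI that share ran from 43.4% to 57.1% with quantile normalisation. Under the column total, 5 named genes changed sign in KI_Chd7del against WT, to 0.22 for Bach1, 0.18 for Hdac2, 0.23 for Lmo2, 0.023 for Pcbp1 and 0.21 for Prkaa1, by construction of that scaling. Neither edgeR nor DESeq2 was fitted, as planned only for raw counts, nor was the planned Ahsp to alpha globin ratio computed. The ratio of Hba-a2 to Hba-a1 was added after seeing the data. In the ratio of adult globin to Slc4a1, leaving out a library moved the log2 difference of KI_Chd7del against KI from -1.0 to between -1.288 and -0.49.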
